A study of Homo sapiens with 6 samples.

Results

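Solute carriers are membrane proteins that move nutrients, ions and metabolites across the plasma membrane or the membranes of vesicles and organelles, and each numbered SLC family groups carriers of related sequence. The set described here held the SLC-named genes outside the mitochondrial SLC25 family, without 12 glucose, lactate and amino acid carriers that the selection left aside, and with at least 60 reads summed over the 6 libraries. Of 17222 gene names in the count table, 115 met these criteria, in 38 families. Total reads over both conditions chose the members. The 4 members with the fewest reads, *SLC22A15*, *SLC22A17*, *SLC2A5* and *SLC36A1*, had 60 reads each, and the names just below the limit were *SLC45A1* with 58 reads, *SLC2A13* with 53 and *SLC26A4* with 51. *SLC2A5* reached the limit through its reads in the knockdown libraries, so its difference between conditions is described below without a test. Counts with and without it are given. *SLC27A2* reached the limit through its 190 control reads, with 13 in the knockdown libraries, so its difference is likewise described without a test, and it stays in the counts. *SLC22A15*, and *SLC4A7* with 74 reads in all, also reached the limit through their knockdown reads, and their differences are descriptions as well.

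The study asked how depletion of the long noncoding RNA *SWINGN* changes the transcriptome of cancer cells. RNA-seq was done on H226, an established lung squamous cell carcinoma line, 48 h after lipid transfection with the antisense oligonucleotide ASO_LINC#3, directed against *SWINGN*, or with the control oligonucleotide ASO_CTRL. Each condition had 3 libraries. The methods text of the study names BJ fibroblasts for this RNA-seq, whereas the sample labels name H226, and the labels were followed here. Only this oligonucleotide and this cell line were sequenced, so an effect particular to the oligonucleotide cannot be told apart from that of the depletion, and *SWINGN* itself was not analysed here.

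A carrier can work as an exchanger, a cotransporter driven by an ion gradient, or a facilitator that lets its substrate run down its own gradient. Epithelial cells combine these types: the sodium pump keeps sodium low inside the cell, sodium-coupled carriers take up amino acids and vitamins, and exchangers such as the SLC7 light chains release amino acids in return for others. Metal ions follow a similar division, in which SLC39 proteins bring zinc, iron and manganese into the cytosol and SLC30 proteins remove zinc from it.

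Reads on genes ranged from 3686828 in ASO_LINC#3 replicate 3 to 10546786 in ASO_CTRL replicate 3, and the members took from 0.288% to 0.301% of them. Of 6 squamous epithelium markers, 2 had a row in the table, with *KRT5* at a mean of 103 CPM (read counts scaled to a common library size) in ASO_CTRL and 69.0 CPM in ASO_LINC#3 and *KRT6A* at 24 reads in all. All 7 markers of simple epithelium and mesothelium were tested, and their summed level ranged from 8790 to 9300 CPM in ASO_CTRL and from 5130 to 8990 CPM in ASO_LINC#3, the highest being replicate 3. Within this list only *CALB2*, which encodes the mesothelial marker calretinin, passed, and it fell from 601 to 154 CPM (−1.97, adjusted p = 0.000195). *MSLN* had a positive value (0.06, adjusted p = 0.91). *KRT8* (−0.33), *KRT18* (−0.46), *KRT19* (−0.38), *WT1* (−0.32) and *UPK3B* (−0.92, adjusted p = 0.0104) were negative without passing. Summed over the 3 of 6 fibroblast markers in the table, the level was 397 to 494 CPM in ASO_CTRL and 222 to 253 CPM in ASO_LINC#3. Of these, *COL1A1* (−1.36, adjusted p = 0.00033) and *PDGFRB* (−1.53, adjusted p = 0.000305) fell, and *THY1* did not pass (−0.17, adjusted p = 0.502). The paper places *COL1A1* and *PDGFRB* among the targets of *SWINGN*, and reports that both rose when *SWINGN* was induced in H226 cells. The leukocyte list had 1 of 4 markers in the table, at or below 2.17 CPM in every library, and the endothelium list had 0 of 3. The part of these marker levels in the results on carriers was not tested.

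Promoter sequence is shown for *SLC27A2*, *SLC2A5*, *SLC46A1* and *SLC1A3*, which were among the carriers that passed and were picked after their values and motif matches were seen, so that the letters can be read beside the values that follow. RefSeq windows on GRCh38.p14, from 250 bases before to 50 bases after each start, matched 93 of the 115 members, 150 windows in all. The search covered both strands for an AP-1 element (TGANTCA), the core of the hypoxia response element (ACGTG), a C/EBP-ATF element (TGATGNAA) and the metal response element core in the forms TGCGCNC and TGCACNC. In *SLC27A2*, at chr15:50181996-50182195 on the plus strand, the 200 bases before the start held none of these letters. *SLC46A1*, at chr17:28406213-28406412 on the minus strand, held both forms of the metal response element core, and *SLC2A5*, at chr1:9069636-9069835 on the minus strand, held the C/EBP-ATF letters on the opposite strand. *SLC1A3* held the AP-1 letters in 2 places, shown with 10 bases on each side, at chr5:36606816-36606842 and chr5:36606918-36606944 on the plus strand. Capitals mark the motif on either strand:
SLC27A2: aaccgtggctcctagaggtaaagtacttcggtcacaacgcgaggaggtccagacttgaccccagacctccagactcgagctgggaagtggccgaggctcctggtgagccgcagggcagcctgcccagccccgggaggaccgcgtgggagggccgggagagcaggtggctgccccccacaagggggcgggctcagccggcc
SLC46A1: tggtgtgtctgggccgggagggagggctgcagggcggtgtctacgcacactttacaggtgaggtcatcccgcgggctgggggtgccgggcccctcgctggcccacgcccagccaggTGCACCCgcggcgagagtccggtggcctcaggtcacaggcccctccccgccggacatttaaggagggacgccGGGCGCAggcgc
SLC2A5: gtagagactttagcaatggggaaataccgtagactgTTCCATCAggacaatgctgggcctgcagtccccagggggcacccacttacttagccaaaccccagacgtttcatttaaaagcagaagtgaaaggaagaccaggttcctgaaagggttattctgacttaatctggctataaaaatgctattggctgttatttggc
SLC1A3, first element: aggagtagccTGAATCAaggctagcca
SLC1A3, second element: aattcggagtTGAGTCAttcggggtgg

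The AP-1 letters were present in 6.67% of the members' windows and in 7.71% of all 35116 windows. For the hypoxia response core these shares were 28% and 21.4%, and for the C/EBP-ATF element 4% and 3.62%. The TGCGCNC form was in 22.7% of the members' windows and 20% of all, and the TGCACNC form in 12.7% and 12.1%. In *SLC1A3* the AP-1 letters began at positions −128 and −26 from the start, and the same window held the hypoxia response core at −80. Other windows of *SLC1A3* held a C/EBP-ATF match at −220 and a TGCACNC match at 9. *SLC7A7* held the hypoxia response core on both strands at −225 and −224, in a palindrome, and a TGCACNC match at −90. TGCACNC matches also lay at −136 in *SLC24A1*, at 11 and 42 in *SLC2A5* and at −223 in *SLC4A7*. *SLC43A3* and *SLC39A14* had no window to search. A match describes letters only, and which start these cells use was not measured.

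Of the 115 members, 113 had enough reads to be tested, and 8 of them, 7.08%, passed an adjusted p-value of 0.01 together with a log2 fold change beyond 0.5. Among all 14660 genes tested, 7.54% passed, so the carriers changed about as often as genes in general. Higher expression in ASO_LINC#3 was called for 4 members (3.54%, with 4.91% of all genes) and lower expression for 4 (3.54%, with 2.63% of all genes). Without *SLC2A5*, 7 of 112 members passed, 6.25%, with 3 of them higher. *SLC27A2*, which met the read limit through its control reads, is still among these 7 and among the 4 lower. With at least 10 reads required in every library neither gene was tested, and 6 of 100 members (6%) and 7.2% of all genes passed. *SLC27A2*, *SLC7A7*, *SLC1A3* and *SLC46A1* fell, and *SLC2A5*, *SLC43A3*, *SLC24A1* and *SLC39A14* rose. The median log2 fold change was −0.09 over the members and −0.00 over all genes, and 52 members had a positive and 61 a negative value. In 40 members, 35.4%, the libraries of the conditions did not overlap, 18 being higher and 22 lower in ASO_LINC#3, and in all genes this share was 36.1%. In bulk RNA, fewer cells of a type and less RNA per cell cannot be told apart.

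**Figure D1:**
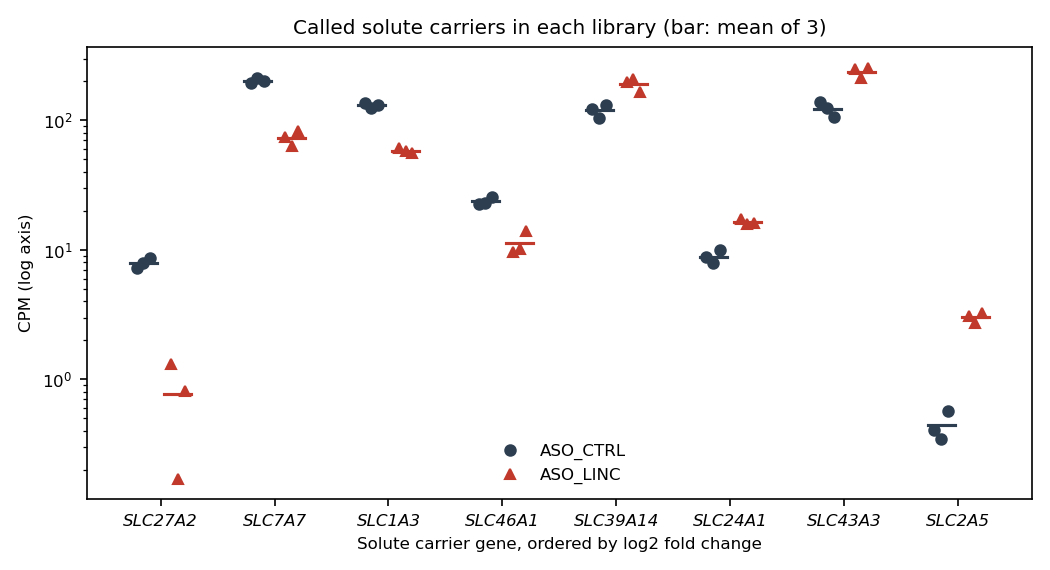
Expression of the 8 carriers that passed the test, in CPM on a log10 axis, for each of the 3 ASO_CTRL and 3 ASO_LINC#3 libraries, with a bar at the mean of each condition. No carrier shown has libraries that overlap between the conditions.

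*SLC7A7* and *SLC1A3* were the amino acid carriers that fell. *SLC7A7* encodes y+LAT1, a light chain that pairs with the heavy chain SLC3A2 and exchanges cationic for neutral amino acids together with sodium. It measured 194, 212 and 203 CPM in the ASO_CTRL libraries and 73.8, 63.7 and 82.4 CPM in the ASO_LINC#3 libraries. Every knockdown library thus lay well below every control library. The change was −1.47 on the log2 scale (SE 0.14, adjusted p = 8.3e-05), from a mean of 203 ± 8.94 to 73.3 ± 9.39 CPM (SD, n = 3 each). The gene lies on the minus strand of chromosome 14, from 23242431 to 23299029 in hg19. It passed the test whichever library was left out, at values from −1.56 to −1.38.

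*SLC1A3* encodes EAAT1, the sodium-coupled glutamate and aspartate carrier known from astrocytes. Its levels were 137, 124 and 131 CPM in ASO_CTRL and 61.0, 58.2 and 56.1 CPM in ASO_LINC#3, and the knockdown libraries were close to each other. The mean was 131 ± 6.75 CPM in ASO_CTRL and 58.4 ± 2.45 CPM in ASO_LINC#3, and the change on the log2 scale was −1.16 (SE 0.12, adjusted p = 0.000197). Leaving out single libraries gave values from −1.19 to −1.12, all past the test. *SLC1A3* spans 36596690 to 36688436 on the plus strand of chromosome 5.

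*SLC43A3*, which carries purine nucleobases but is numbered in a family of amino acid carriers, was the member of that class that rose. The ASO_CTRL libraries measured 139, 124 and 107 CPM and the ASO_LINC#3 libraries 247, 212 and 256 CPM. Even the lowest knockdown library was above the highest control. The log2 fold change was 0.95 (SE 0.14, adjusted p = 0.00141), from 123 ± 16.2 to 238 ± 23.0 CPM. Without ASO_CTRL replicate 3 the value was 0.85 (adjusted p = 0.0147) and without ASO_LINC#3 replicate 1 it was 0.93 (adjusted p = 0.0108), neither of which passed the threshold, nor did it pass with the bound of 0.5 built into the test (glmTreat, adjusted p = 0.0251). The gene lies on the minus strand of chromosome 11, from 57174427 to 57195053.

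In the whole class of amino acid, neurotransmitter and osmolyte carriers, 15 of 16 members were tested, 10 had negative and 5 positive log2 fold changes, and the median was −0.13. *SLC7A6* encodes y+LAT2 and performs the same kind of exchange as *SLC7A7*. It measured 35.2 ± 3.28 CPM in ASO_CTRL and 26.0 ± 2.36 CPM in ASO_LINC#3, a log2 fold change of −0.44 that did not pass (adjusted p = 0.0646). Exons on the opposite strand overlap 55.6% of its exon bases, and with the strand setting of the counting unknown its value is uncertain. The cationic amino acid carrier *SLC7A2* was at 77.1 ± 3.06 and 88.9 ± 4.65 CPM (0.21, adjusted p = 0.277), and the neutral amino acid exchanger *SLC7A8* at 3.09 ± 1.32 and 4.30 ± 0.559 CPM (0.48, adjusted p = 0.347). So among the SLC7 members measured here, *SLC7A7* passed and these 3 did not, although the differences between these genes were not tested. *SLC38A9*, the lysosomal arginine sensor, had 96 reads in all and a value of −1.11 with overlapping libraries (adjusted p = 0.0727).

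*SLC27A2* had the most negative log2 fold change of all 14660 genes tested. It encodes FATP2, an acyl-CoA synthetase of very long-chain fatty acids that also takes part in fatty acid uptake. The control libraries measured 7.27, 7.92 and 8.59 CPM, from 54, 46 and 90 reads. The knockdown libraries measured 1.32, 0.171 and 0.813 CPM, from 9, 1 and 3 reads, so that each of them was far below each control while their own levels rest on very few reads. The log2 fold change was −3.30 (SE 0.40), and single libraries left out moved it between −4.17 and −2.79. Because its membership depended on the control reads, this value is a description only. Set against each other with library sizes taken into account, the 190 reads of the control libraries and the 13 of the knockdown libraries gave a ratio of 10.1, with an exact 95% interval from 5.75 to 19.3 that covers counting error only. *SLC27A2* lies on the plus strand of chromosome 15, from 50474393 to 50528582, and 19.9% of its exon bases overlap exons on the opposite strand.

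The other 4 fatty acid carriers did not pass. *SLC27A1*, which encodes FATP1 and had the most reads of the class, measured a log2 fold change of 0.18 (adjusted p = 0.622), and its sign turned to −0.06 when ASO_LINC#3 replicate 3 was left out. The class median was −0.09 over 5 members.

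*SLC2A5* had the largest positive log2 fold change of the set. It encodes GLUT5, a fructose transporter best known from the small intestine. Its control libraries measured 0.404, 0.344 and 0.572 CPM, from 3, 2 and 6 reads, and its knockdown libraries 3.09, 2.74 and 3.25 CPM, from 21, 16 and 12 reads. The conditions did not overlap, and the knockdown libraries were alike. The log2 fold change was 2.66 (SE 0.37). With 11 reads in the control and 49 in the knockdown libraries, *SLC2A5* had exactly the 60 reads of the lower limit, so its membership depended on the knockdown reads and this value is a description only. It lies on the minus strand of chromosome 1, from 9095165 to 9148537.

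The class of hexose and polyol carriers had 8 members, of which 6 had a change beyond 0.5, 4 of them downwards, and the class median was −0.46. Among all 14660 genes, 4441 had a change beyond 0.5. *SLC2A6*, which encodes GLUT6, a lysosomal hexose transporter, measured 95.1 ± 12.1 CPM in ASO_CTRL and 55.0 ± 13.4 CPM in ASO_LINC#3. Its log2 fold change of −0.80 did not pass (adjusted p = 0.0132), and its single knockdown libraries stood at −1.10, −0.88 and −0.43 relative to the control mean. *SLC2A8*, which encodes GLUT8, measured −0.82 (adjusted p = 0.0761), with −1.18 and −1.23 in replicates 1 and 2 and −0.10 in replicate 3. *SLC2A11* was at −0.69 (adjusted p = 0.049), *SLC45A4* at −0.95 (adjusted p = 0.0168) and *SLC45A3* at 0.95 (adjusted p = 0.012). Besides *SLC2A5*, no hexose carrier of the set was called. Of the glucose transporters left out by the selection, *SLC2A1* rose from 87.5 to 278 CPM (1.67, adjusted p = 3.19e-05) and *SLC2A3* from 10.7 to 74.7 CPM (2.82, adjusted p = 5.83e-06).

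*SLC46A1* was the vitamin carrier that fell. It encodes the proton-coupled folate transporter. ASO_CTRL libraries measured 22.8, 23.1 and 25.4 CPM and ASO_LINC#3 libraries 9.55, 10.1 and 14.1 CPM, with no overlap and with replicate 3 nearest to the controls. The log2 fold change was −1.11 (SE 0.19, adjusted p = 0.00317). Only the fit without ASO_LINC#3 replicate 3 kept the call (−1.28, adjusted p = 0.000148), and leaving out any of the other 5 libraries gave adjusted p-values from 0.0124 to 0.0239. The call was also lost with the bound built into the test (adjusted p = 0.027). The gene lies on the minus strand of chromosome 17, from 26721661 to 26734215, and 61.6% of its exon bases overlap exons on the opposite strand, among them those of *SARM1*, an NAD hydrolase of axons. *SARM1* itself fell from 32.9 to 9.45 CPM (−1.86, adjusted p = 0.00102), and since the strand setting of the counting is not given in the sources used here, reads of these overlapping genes cannot be told apart and the value of *SLC46A1* is uncertain.

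None of the other 12 vitamin, choline and nucleoside carriers passed, and the class median was −0.11. *SLC44A2*, a choline transporter-like protein with the most reads of the class, measured −0.11 (adjusted p = 0.713), and its sign turned in the fits without ASO_CTRL replicate 1 and without ASO_LINC#3 replicate 2, at 0.01 and 0.02. Its relative *SLC44A3* had 2.56, 5.85 and 4.67 CPM in ASO_CTRL and 4.41, 5.99 and 32.0 CPM in ASO_LINC#3. A single knockdown library, replicate 3, carried this difference, and the log2 fold change of 1.59 (SE 0.66) did not pass (adjusted p = 0.121).

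**Figure D2:**
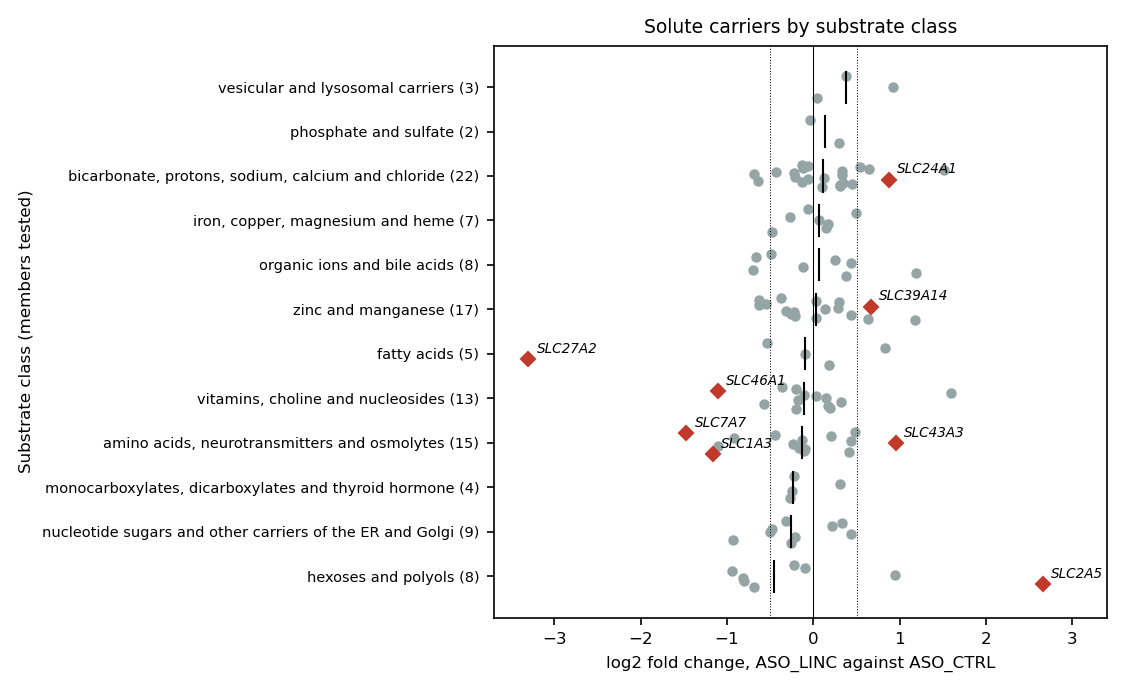
Log2 fold change of ASO_LINC#3 against ASO_CTRL for the 113 tested carriers, grouped by substrate class with the number tested in parentheses. Red diamonds are the 8 that passed, grey points the others, vertical bars the class medians and dotted lines the bound of 0.5 in both directions. The hexose class has the lowest median, at −0.46, and the vesicular class, with 3 members, the highest, at 0.37.

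*SLC39A14* encodes ZIP14, which brings zinc, manganese and non-transferrin iron into cells. It measured 122, 104 and 133 CPM in ASO_CTRL and 198, 208 and 165 CPM in ASO_LINC#3, so that the conditions did not overlap and replicate 3 had the lowest knockdown level. The log2 fold change of 0.67 (SE 0.14) passed narrowly (adjusted p = 0.00987). Leaving out ASO_LINC#3 replicate 3 kept the call, at 0.76 (adjusted p = 0.000665), and leaving out any of the other 5 libraries ended it, with adjusted p-values from 0.0308 to 0.0485, as did building the bound into the test (adjusted p = 0.331) and requiring 10 reads in every library (adjusted p = 0.0112). The gene is on the plus strand of chromosome 8, from 22224791 to 22291642.

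Zinc and manganese carriers formed a class of 17 tested members with a median of 0.03, of which *SLC39A14* passed. *SLC39A8*, which encodes ZIP8 and is the closest relative of ZIP14, measured 57.0, 57.3 and 57.9 CPM in ASO_CTRL and 43.2, 40.0 and 27.4 CPM in ASO_LINC#3. All its knockdown libraries were below the controls, but the log2 fold change of −0.62 did not pass (adjusted p = 0.0284). *SLC39A1*, which encodes ZIP1 and had the most reads of all members, was at 192 ± 7.34 and 164 ± 17.7 CPM (−0.23, adjusted p = 0.244). *SLC30A1* encodes ZnT1, the zinc exporter of the plasma membrane and a classical target of the metal-responsive factor MTF1. Its levels of 2.83, 2.58 and 2.48 CPM in ASO_CTRL and 4.70, 7.02 and 6.24 CPM in ASO_LINC#3 did not overlap, yet the log2 fold change of 1.17 (SE 0.26) missed the threshold (adjusted p = 0.0115). It narrowly passed where every library had to hold 10 reads (adjusted p = 0.00986) and without ASO_LINC#3 replicate 3 (adjusted p = 0.00952). Its promoter window held the TGCACNC form of the metal response element core at −49 and 25. That form was in 12.7% of the members' windows and 12.1% of all.

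*SLC24A1* was the member that rose among the 22 carriers of bicarbonate, protons, sodium, calcium and chloride. It encodes NCKX1, a potassium-dependent sodium-calcium exchanger first described in rod photoreceptors. Levels were 8.75, 7.92 and 9.92 CPM in ASO_CTRL and 17.3, 15.7 and 16.0 CPM in ASO_LINC#3, well apart in every library. The log2 fold change was 0.87 (SE 0.18, adjusted p = 0.00745). It passed without ASO_LINC#3 replicate 3, at 0.89 (adjusted p = 0.00277), but with each of the other 5 libraries left out it did not, at adjusted p-values from 0.0236 to 0.0414, nor did it pass with the bound built into the test (adjusted p = 0.108). The gene is on the plus strand of chromosome 15, from 65903704 to 65953333, and 9.1% of its exon bases overlap exons on the opposite strand.

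None of the SLC4 bicarbonate carriers passed. *SLC4A7*, an electroneutral sodium bicarbonate cotransporter, measured 0.539, 1.20 and 1.34 CPM in ASO_CTRL and 2.65, 3.42 and 2.98 CPM in ASO_LINC#3, from 4, 7 and 14 and from 18, 20 and 11 reads. Its conditions did not overlap, and the log2 fold change was 1.51 (SE 0.37). Of its 74 reads most lay in the knockdown libraries, so its membership depended on them and this value is a description only. The chloride-bicarbonate exchanger *SLC4A2* was at −0.22 (adjusted p = 0.496). *SLC12A8*, with the most reads of this class, was at −0.13 (adjusted p = 0.483).

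In the remaining 6 classes, 33 members were tested and none passed. *SLC31A1*, the copper importer CTR1, measured 0.15 (adjusted p = 0.483) among 7 carriers of iron, copper, magnesium and heme with a median of 0.07. The 4 monocarboxylate, dicarboxylate and thyroid hormone carriers had a median of −0.24. *SLC35A3*, which brings UDP-N-acetylglucosamine into the Golgi, was at 0.44 (adjusted p = 0.0664), while its class of 9 carriers of the ER and Golgi had a median of −0.26.

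Among organic ion carriers, *SLC22A5*, the sodium-dependent carnitine transporter OCTN2, went from 25.1 ± 0.604 to 15.7 ± 2.45 CPM without passing (−0.66, adjusted p = 0.0201). *SLC22A18* was at −0.12 (adjusted p = 0.692), and its sign turned to 0.01 without ASO_CTRL replicate 2. *SLC22A15* had 13, 2 and 8 reads in ASO_CTRL and 19, 11 and 7 in ASO_LINC#3. Its CPM did not overlap, and the log2 fold change was 1.19, which did not pass. With exactly 60 reads in all, its membership depended on the knockdown reads, so this value is a description only. The phosphate carrier *SLC20A1*, known as PiT1, was at 0.30 (adjusted p = 0.318) with all libraries and at 0.52 (adjusted p = 0.00319) without ASO_LINC#3 replicate 3. *SLC15A4*, a lysosomal histidine and peptide transporter, measured 55.5 ± 11.1 and 105 ± 32.8 CPM (0.92, adjusted p = 0.0214), with 1.13 and 1.21 in replicates 1 and 2 and 0.30 in replicate 3.

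At an adjusted p-value of 0.05 with the same bound, 18 members passed, 9 higher (*SLC2A5* and *SLC4A7* among them) and 9 lower (*SLC27A2* among them). They were 15.9% of those tested, while 16.8% of all genes passed. The 10 members that this threshold adds comprise 5 with higher and 5 with lower levels in ASO_LINC#3. Of the 113 tested members, 79 had a log2 fold change within 0.5 in either direction. The other 34 lay beyond it, as did 4441 of all 14660 genes, a similar share.

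The knockdown libraries did not carry the same changes to the same degree. Relative to the control mean, the median change of the members was −0.13 in replicate 1, −0.10 in replicate 2 and 0.12 in replicate 3. In replicate 3, 36 of 113 members, 31.9%, had a sign opposite to that in both other libraries, and among all genes this share was 27%. For replicate 1 the number was 4 (3.54%, with 7.63% of all genes) and for replicate 2 it was 7 (6.19%, with 8.17%). Without replicate 3, 21 members passed, 9 higher (*SLC2A5* among them) and 12 lower, or 18.3% of 115 tested, and 17.2% of all genes passed. Among the members called in addition were *SLC2A8* (−1.23), *SLC39A3* (−1.16), *SLC12A9* (−0.88), *SLC15A4* (1.15) and *SLC45A3* (0.92). ASO_LINC#3 replicate 3 was also the library with the fewest reads, and the part of depth in these differences was not tested.

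**Figure D3:**
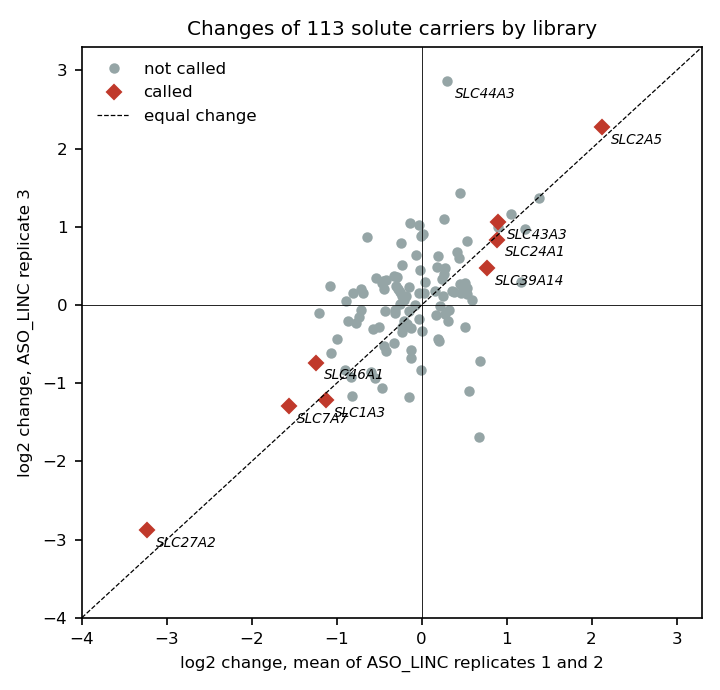
Change of each of the 113 tested carriers in the single ASO_LINC#3 libraries, as log2 CPM minus the mean of the ASO_CTRL libraries, with the mean of replicates 1 and 2 on the horizontal and replicate 3 on the vertical axis. Red diamonds are the 8 carriers that passed, grey points the others, of which *SLC44A3* stands apart through replicate 3.

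**Figure D4:**
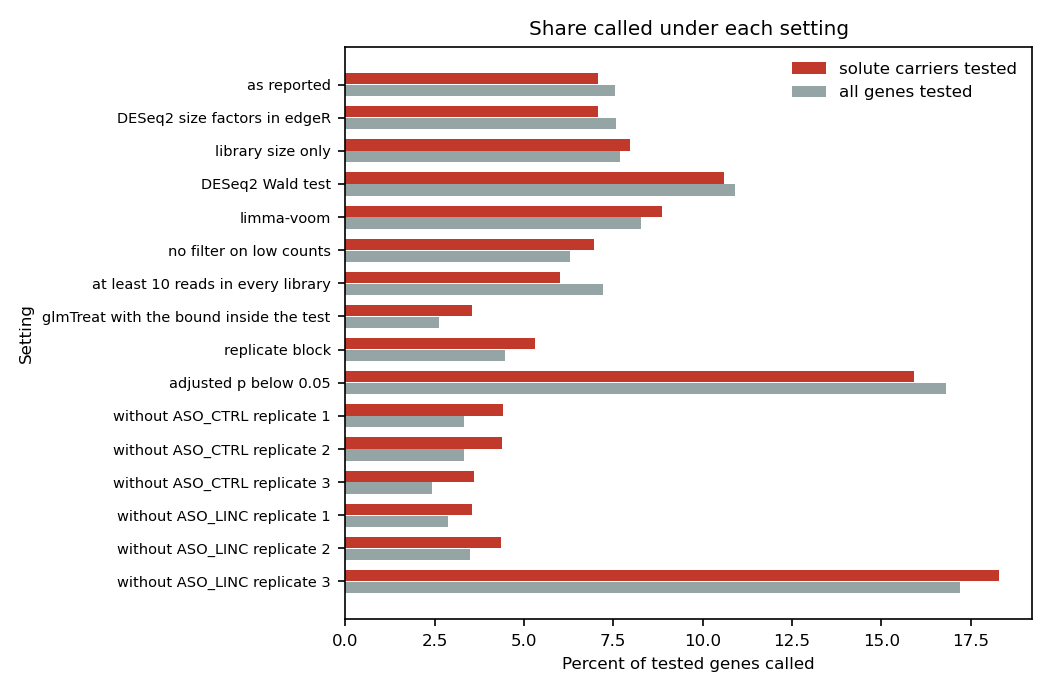
Share of the tested carriers (red) and of all genes tested (grey) that passed, in percent, under the reported test and each alternative. With the bound inside the test, 3.54% of the carriers and 2.62% of all genes passed, and without ASO_LINC#3 replicate 3 these shares were 18.3% and 17.2%. Both shares of carriers include *SLC2A5*, which with the bound inside the test was the only carrier called higher.

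Genes that work with carriers were compared as well. The sodium pump, whose gradient drives the sodium-coupled carriers, had 3 of 6 listed subunits in the table, and none passed, with *ATP1B1* at −0.29 and *ATP1B3* at 0.52 (adjusted p = 0.029). Of 19 listed partners and regulators, 17 were tested and 4 passed (23.5%, with 7.54% of all genes), 3 of them higher, with a median log2 fold change of 0.50. This list was chosen with earlier results of these data known, so its share is a description and no measure of enrichment. *CA9*, the carbonic anhydrase of the cell surface that supplies and removes bicarbonate beside its carriers, rose from 15.9 ± 1.06 to 41.4 ± 7.62 CPM (1.36, adjusted p = 0.000532). *CA12*, a second carbonic anhydrase of the cell surface, rose from 2.34 ± 1.00 to 10.1 ± 1.31 CPM (2.16, adjusted p = 0.000802). *LRRC8A*, the obligate subunit of volume-regulated anion channels, rose from 29.2 ± 3.50 to 56.1 ± 3.12 CPM (0.94, adjusted p = 0.00162). *SLC9A3R1*, a scaffold protein that anchors carriers at the apical membrane, fell from 276 ± 24.0 to 129 ± 25.6 CPM (−1.10, adjusted p = 0.00116). Calls of *LRRC8A* were lost without ASO_CTRL replicate 1, ASO_CTRL replicate 2 or ASO_LINC#3 replicate 1 (adjusted p = 0.0122, 0.0117 and 0.0124), and that of *SLC9A3R1* without ASO_LINC#3 replicate 1 (adjusted p = 0.0107). With the bound built into the test neither passed (adjusted p = 0.0293 and 0.0122).

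Carriers named outside the pattern, such as the organic anion transporters and the nucleotide sugar carriers with a letter other than A in their name, had 20 tested of 21, and 2 passed (10%, with 7.54% of all genes). *SLC35D1*, a nucleotide sugar carrier of the ER, fell from 7.07 ± 1.40 to 2.48 ± 0.244 CPM (−1.50, adjusted p = 0.00415). *SLCO4A1*, an organic anion transporter, rose from 4.12 to 11.0 CPM (1.36, adjusted p = 0.00619). *SLC35D1* lost its call when replicate 1 or 2 of either condition was left out, at adjusted p-values from 0.0177 to 0.0242. *SLCO4A1* lost its call without any of the ASO_CTRL libraries or without ASO_LINC#3 replicate 1, at adjusted p-values from 0.0212 to 0.0338. With the bound built into the test both calls were lost (adjusted p = 0.0209 and 0.0342). Of the 12 carriers left out by the selection, 3 passed, all upwards (25%, with 4.91% of all genes), and 11 had a positive value, as 7292 of all 14660 genes did, with a median of 0.62. The selection and the list of carriers named outside the pattern were also made with earlier results known, so these shares are descriptions only.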

How the data were processed

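RNA-seq libraries of H226 cells were prepared by the authors with dT-primed first strand cDNA, sequenced as single reads, and aligned to hg19 with STAR. Priming at the poly(A) tail can favour reads near transcript ends. The authors deposited raw counts of reads per gene name, not normalized and with replicates kept apart. The counting tool, annotation and strand setting are not given in the sources used here. Rows of reads assigned to no gene, 24.8% to 28.1% of a library, were left out. Columns of other samples numbered 0.

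Conditions were set against each other by the quasi-likelihood F-test of edgeR 4.0.16 (R 4.3.3, filterByExpr, TMM), with p-values adjusted by Benjamini and Hochberg's method over all 14660 genes tested. Calls needed both an adjusted p under 0.01 and an absolute log2 fold change over 0.5, the thresholds of the study. CPM use TMM library sizes and are given as mean ± SD of 3 libraries. The change in a single library is its log2 CPM (prior count 2) minus the control mean. The labels do not say that replicates were separate cultures. The paper states in general that its experiments were biological triplicates where no legend says otherwise, and the legend of this RNA-seq gives no number. P-values measure the spread between these samples, which may be technical. An exact permutation test of 3 against 3 cannot go below 0.1.

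Members, substrate classes (by family number), markers and other lists were chosen with earlier results of these data known. Genes named are the called members, the member with the most reads in each class, members at the read limit, members not called with libraries apart and a change beyond 1, and called genes of the other lists. Some genes that this rule names are not reported here. Further members were named after their values were seen: *SLC7A2*, *SLC7A6*, *SLC7A8*, *SLC38A9*, *SLC2A8*, *SLC2A11*, *SLC45A3*, *SLC45A4*, *SLC39A3*, *SLC39A8*, *SLC4A2*, *SLC12A9*, *SLC22A5*, *SLC44A3*, *SLC36A1* and *SLC10A7*, as were *SARM1*, *ATP1B1* and *ATP1B3*. Positions are from GENCODE v44lift37 on hg19 (114 of 115 members matched). Promoters are from RefSeq on GRCh38.p14, and coordinates of the builds were not mixed. Alternatives used DESeq2 1.42.0 and limma 3.58.1. The fit was tested on simulated data.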

Additional observations from a re-analysis of the deposited data

How the results depend on the processing

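The counts of 4 carriers higher and 4 lower in ASO_LINC#3 were unaltered with DESeq2 size factors, without a filter on low counts and with a minimum of 30 reads. Library sizes alone gave 5 and 4, limma-voom 5 and 5, at least 10 reads in every library 3 (*SLC30A1* among them) and 3, and a minimum of 120 reads 3 and 4. The DESeq2 Wald test called 7 higher and 5 lower (1597 genes in all, against 1106). Placing the bound inside the test (glmTreat) left 1 higher and 3 lower (384 genes in all). The higher one was *SLC2A5*, whose membership depended on its knockdown reads. The lower ones were *SLC1A3*, *SLC7A7* and *SLC27A2*. An adjusted p-value of 0.05 gave 9 higher and 9 lower (2465 in all). Leaving out single libraries gave 1 to 9 higher and 3 to 12 lower, with 359 to 2616 genes in all. *SLC2A5* was among the higher members in each of these fits, and the only one without ASO_CTRL replicate 3 or without ASO_LINC#3 replicate 1. The highest numbers came without ASO_LINC#3 replicate 3. *SLC1A3* and *SLC7A7* were called in all 6 of these fits, as were *SLC27A2* and *SLC2A5*, whose membership depended on the reads of a single condition. Signs turned for *SLC27A1* (−0.06 without ASO_LINC#3 replicate 3, range to 0.34), *SLC22A18* (0.01 without ASO_CTRL replicate 2, range from −0.28) and *SLC44A2* (0.01 without ASO_CTRL replicate 1, 0.02 without ASO_LINC#3 replicate 2, range from −0.31). The cause of these differences was not tested. *SLC27A2* and *SLC2A5* are not tested where every library must hold 10 reads, and their values rest on few reads.

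A replicate block called 2 higher members, *SLC2A5* and *SLC43A3*, 4 lower members and 656 genes in all. *SLC24A1* and *SLC39A14* were not among them (adjusted p = 0.0238 and 0.0313), and of the other carriers named *SLC35D1* was not called (adjusted p = 0.01). Deviations from the condition means correlated at 0.06, −0.15 and −0.18 for the numbers 1, 2 and 3. Deviations of only 3 libraries per condition depend on each other, so these values cannot settle whether libraries of the same number shared a batch.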

Other observations

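*SLC36A1*, a lysosomal amino acid exporter, and *SLC10A7* met the read limit of the set but not the filter for testing, and no fold change is given for them.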
